A study of Capra hircus with 4 samples.

Results

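The S100 proteins are a vertebrate family of small calcium-binding proteins, and 10 of their genes were examined in stem cells of the secondary hair follicle, grown in culture from the skin of cashmere goats (Capra hircus). The members were the rows whose gene symbol was S100A2, S100A4, S100A6, S100A8, S100A9, S100A10, S100A11, S100A14, S100A16 or S100B, and all 10 were found among the 20326 genes of the deposited tables. Secondary follicles grow the fine cashmere undercoat. The cells were isolated from dorsal skin and cultured, and RNA was sequenced from 2 libraries of October cells (mid anagen, 1 female and 1 male) and 2 libraries of April cells (early anagen, 1 female and 1 male). Anagen is the growth phase of the hair cycle. All 4 libraries came from cultures, month and phase go together in the labels, and in each phase replicate 1 is the female and replicate 2 the male. The labels name no genotype, age, passage or culture time.

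Most S100 proteins form dimers that change shape when calcium binds to their EF-hands, the helix-loop-helix sites that hold the ion, and then bind a target protein. In skin they are best known from keratinocytes, where some members mark basal cells, others accompany differentiation, and S100A8 and S100A9 are induced by injury and inflammation. S100B is better known from Schwann cells and melanocytes, and S100A4 from mouse fibroblasts. In the RefSeq gene table of the ARS1.2 goat assembly, 9 of the members lie on 1 chromosome and S100B lies on another.

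Values are the deposited abundances per gene, which are normalised for gene length, so that levels of different genes can be set side by side. The library totals were 933211 and 844960 in the October female and male, against 1068430 and 1186970 in the April female and male, and the number of reads is unknown. Keratinocyte markers (9 of 10 listed genes found) summed to 19658 and 20820 in October and to 39473 and 44309 in April, most of it KRT14 and KRT5. The other 7 keratinocyte markers summed to 2774 and 2630 in October and to 2994 and 2706 in April, so the lower October sum came mostly from those 2 keratins. Bulge markers, those of the follicle's stem cell niche, summed to 217 and 244 in October, against 123 and 96.3 in April. Most of each bulge sum was SOX9, at 150 and 171 in the October female and male and at 101 and 82.5 in the April female and male. Among the bulge markers CD34 was at 0.136 and 0.0136 in the October female and male and at 0 in both April libraries. Fibroblast markers summed to 188 and 77.5 in the October female and male, against 40.3 and 25.6 in April. Nearly all of the April sum was THY1, and the other 9 summed to 171 and 48.7 in October, against 0.860 and 2.55 in April. COL1A1 alone, a type I collagen chain, was at 58.6 and 19.8 in October and at 0.179 and 0.987 in April. Dendritic, Langerhans and T cell markers summed to between 4.81 and 6.23, and endothelial markers to less than 1, in every library.

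The family's levels ran from 1.16 for S100A6 in the October male to 11260 for S100A2 in the April male, and their order was nearly the same in every library. S100A2 was the most abundant S100 gene and ranked 14 among all genes by its mean over the libraries. S100A11, S100A10, S100A16, S100A14 and S100A4 followed, then S100A9 and S100A8, then S100B and S100A6. Places 3 to 8 in this order held the same genes in all 4 libraries. S100A11 was above S100A2 in the October male, and S100A6 was above S100B in the April male. Within October the ranges of S100A2 and S100A11 overlapped, as did those of S100B and S100A6 within April. All other neighbours in the order were apart in both phases.

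**Figure D1:**
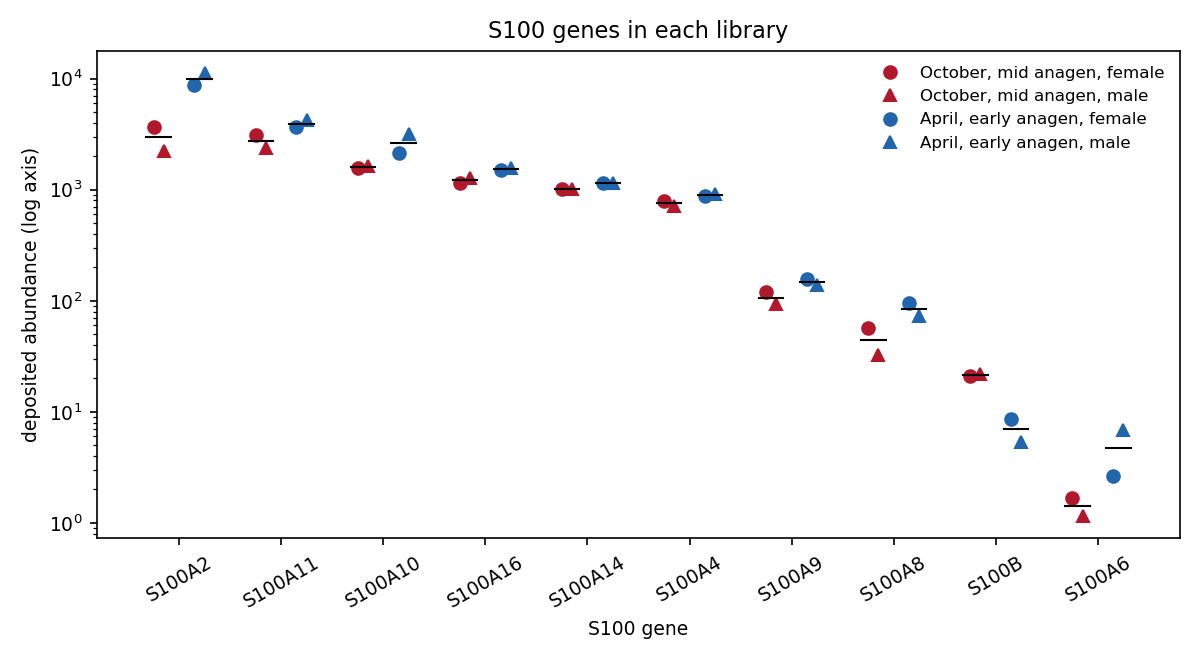
Deposited abundance of each S100 gene on a log axis, with October libraries in red, April libraries in blue, females as circles, males as triangles and the mean of each phase (n = 2) as a short line. S100B is the gene whose October values, 21.2 and 21.9, lie above its April values, 8.57 and 5.35, and the other 9 genes have both October values below both April values.

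October cells had lower values than April cells for 9 of the members and higher values for S100B. In each of the 10 the 2 October libraries lay apart from the 2 April libraries. Over all 12486 tested genes, 30.9% had both October libraries below both April libraries and 31.5% had both above. None of the 10 members passed limma at a Benjamini-Hochberg adjusted p under 0.05 over all tested genes, while 5 had an unadjusted p under 0.05, namely S100A2, S100A6, S100A8, S100A9 and S100B. Over all genes 38 were called, which is 0.304%, and 27.9% had an unadjusted p under 0.05. The median log2 fold change was -0.50 over the members and 0.01 over all tested genes. All log2 fold changes are October minus April on the log2(value + 1) scale. All 10 members were above 1 in every library, so none was tested only through the phase in which it was high.

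The direction of the smallest differences depended on how libraries were scaled. When each library was rescaled to a common total, the median of all tested genes moved to 0.32 on the log2 scale, a shift of 0.31, and that of the members became -0.16. On that scale S100A4, S100A14 and S100A16 changed sign, 5 members had both October libraries below both April libraries against 12.7% of all genes, and 3 had both above against 57.2%. S100B was then called, with a log2 fold change of 1.84 (limma adjusted p = 0.0384). Of all tested genes 648 were called after this rescaling, 87.2% of them higher in October, against 38 called as deposited. All members are short, from 1242 bp for S100A8 to 11307 bp for S100A10. Over the 3941 tested genes that span no more than 11307 bp the median log2 fold change was -0.16, against 0.07 over the longer ones. With the trend on span removed, the members' median was -0.29 and 0 of them were called, against 37 of all tested genes.

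**Figure D2:**
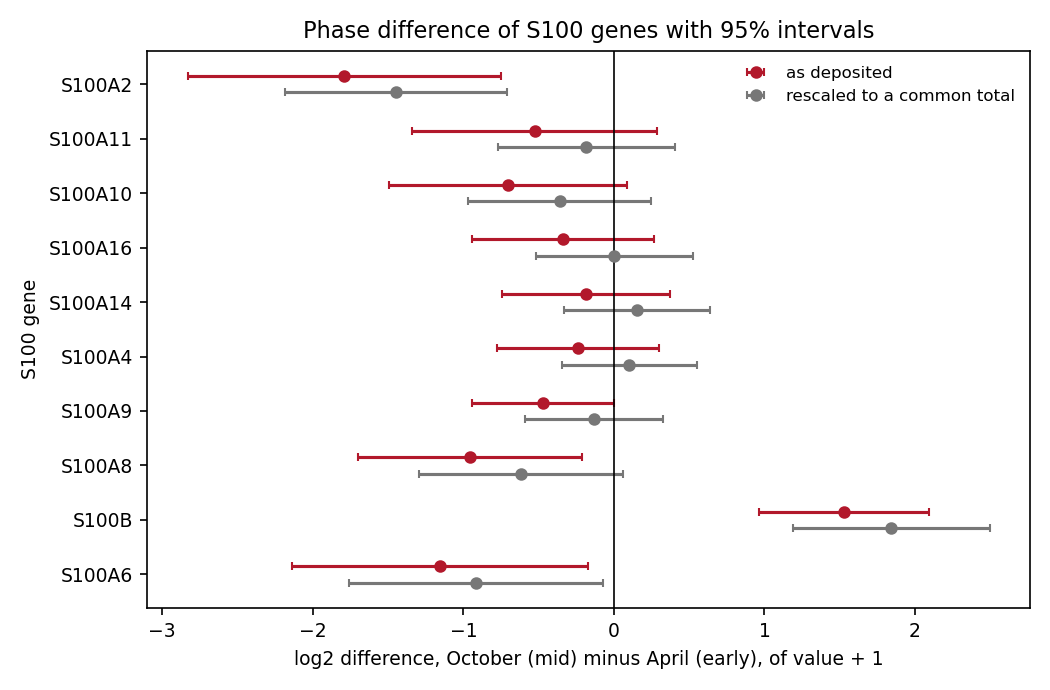
Log2 fold change of each S100 gene, October minus April, with its 95% interval from limma (n = 2 libraries a phase), for values as deposited in red and after rescaling to a common total in grey. The intervals of S100A2, S100A6 and S100B stay on 1 side of 0 on both scales. Those of S100A4, S100A10, S100A11, S100A14 and S100A16 include 0 on both.

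S100A2 showed the largest fold difference of the members in the values as deposited, while S100B was farther from 0 after rescaling or with the span trend removed. It marks basal keratinocytes and is a known target of the p53 family in human cells. S100A2 (GeneID 102189534) was at 3678 and 2237 in the October female and male, against 8764 and 11260 in the April female and male. The October mean was 29.5% of the April mean, 2957 ± 1019 against 10012 ± 1764 (SD, n = 2 each), and the difference exceeded the spread within either phase. Its log2 fold change was -1.79 (SE 0.42, 95% interval -2.83 to -0.75), with a limma adjusted p of 0.0848. It was -1.45 after rescaling to a common total (adjusted p = 0.0504) and -1.59 with the span trend removed. Without the October female library it was -2.15, and without the October male library -1.43. KRT14, the basal keratin, also had lower October values, 9603 and 8956 against 20587 and 23511 in April, and did not pass (adjusted p = 0.155). TP63, the p53 family factor of basal keratinocytes, was at 138 and 83.2 in October and at 111 and 78.9 in April, with the phases overlapping. Within each library the ratio of S100A2 to KRT14, which is free of library scaling, was 0.383 and 0.2497 in October and 0.426 and 0.479 in April. The part that basal keratinocyte expression has in the S100A2 difference was not tested.

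The other abundant members lay closer to their April levels. S100A11, a partner of annexin A1 that helps restrain growth of human keratinocytes, was at 3133 and 2363 in October, against 3635 and 4228 in April (log2 fold change -0.53, 95% interval -1.34 to 0.29, limma adjusted p = 0.337). The ratio of S100A2 to S100A11 was 1.17 and 0.946 in the October female and male, against 2.41 and 2.66 in the April female and male. S100A10, which binds annexin A2 at the cell surface and does not need calcium to do so, was at 1574 and 1619 in October and at 2122 and 3189 in April (log2 fold change -0.70, 95% interval -1.49 to 0.09, adjusted p = 0.213). Its April libraries differed from each other more than its October libraries did. The ratio of S100A10 to ANXA2, its annexin partner, was 0.536 and 0.416 in October and 0.481 and 0.522 in April, so that the phases overlapped.

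S100A16 and S100A14, both expressed in epithelia, and S100A4 were close to their April levels. S100A16 was at 1152 and 1281 in October, against 1494 and 1581 in April, a log2 fold change of -0.34 (95% interval -0.94 to 0.27). S100A14 was at 1013 and 1006 in October, against 1153 and 1147 in April, a log2 fold change of -0.19 (95% interval -0.75 to 0.37). The 2 libraries of each phase nearly coincided for S100A14. S100A4, which binds non-muscle myosin and serves as a fibroblast marker in mice, was at 793 and 720 in October, against 870 and 915 in April, a log2 fold change of -0.24 (95% interval -0.78 to 0.30). COL1A1 values were higher in October, most so in the female library, while S100A4 values were slightly lower, and the part that fibroblast-like expression has in the S100A4 level was not tested. These 3 genes had limma adjusted p-values from 0.396 to 0.613, and after rescaling their log2 fold changes were 0.00, 0.16 and 0.10 for S100A16, S100A14 and S100A4.

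Taken as a sum, the 10 members made up 1.24% and 1.11% of the library total in the October female and male, against 1.71% and 1.90% in the April female and male. S100A2 supplied 31.9% and 23.9% of that sum in October and 47.9% and 49.9% in April. Without S100A2 the other 9 made up 0.843% and 0.845% of the total in October, against 0.893% and 0.951% in April. The summed level had a log2 ratio of -0.97 as deposited and -0.62 after rescaling. An exact two-sided permutation test of 2 against 2 libraries cannot go below p = 0.33, and no test of the sum was run. The pooled SD of the log2 sum between libraries of 1 phase was 0.21. In bulk cultures, fewer cells that express a gene and less of its RNA in each cell cannot be told apart.

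**Figure D3:**
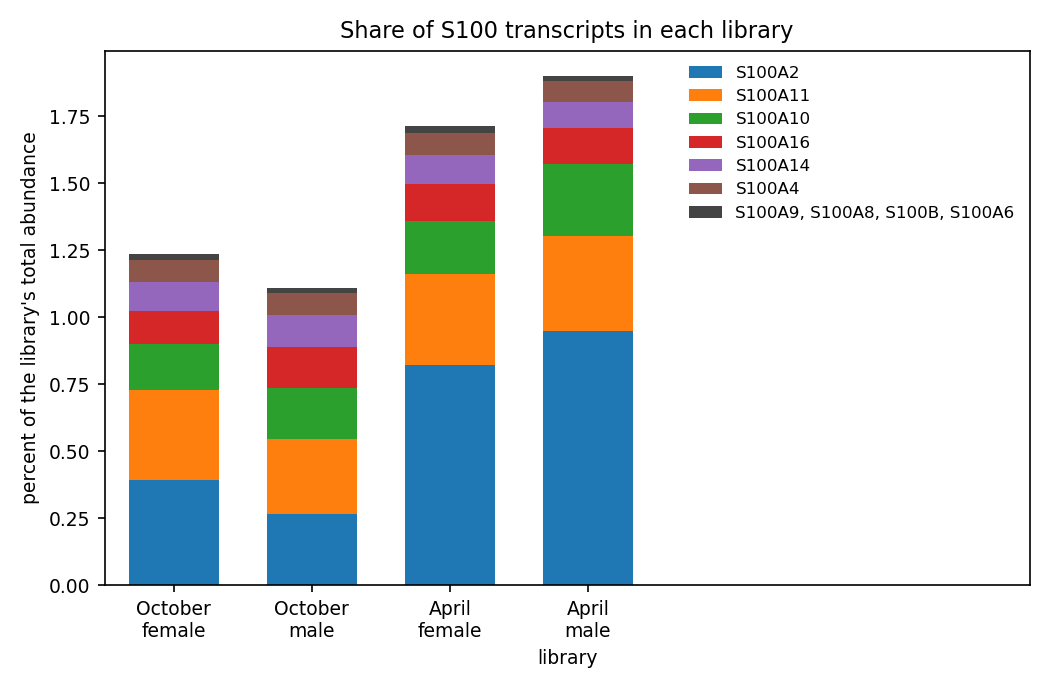
Percent of each library's total deposited abundance taken by the S100 members, stacked by gene, October libraries on the left and April libraries on the right. The S100A2 part is larger in both April bars, and the parts of the other genes together differ less, at 0.843% and 0.845% in October against 0.893% and 0.951% in April.

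S100A8 and S100A9 form calprotectin, the calcium- and metal-binding heterodimer of neutrophils and of stressed keratinocytes. S100A8 (GeneID 102168876) was at 56.6 and 32.5 in the October female and male, against 96.3 and 73.6 in the April female and male, and its log2 fold change was -0.96 with an SE of 0.30 (limma adjusted p = 0.124). Both phases had the lower value in the male library. Without the October female library the log2 fold change was -1.35, and without the October male library it was -0.57. S100A9 (GeneID 102182273) was at 119 and 94.3 in October and at 157 and 139 in April, and its log2 fold change was -0.47 with an SE of 0.19 (limma adjusted p = 0.178). The ratio of S100A8 to S100A9 was 0.475 and 0.345 in October, against 0.616 and 0.529 in April, with no overlap between phases. Neutrophil and macrophage markers were low in all libraries, summing to 6.12 and 3.85 in October and 6.30 and 4.93 in April over 8 genes. Most of each sum was CD68, at 4.41 and 2.40 in October and at 3.90 and 3.56 in April. PTPRC and TYROBP, which mark leukocytes, were at 0 in every library, and CSF3R, the neutrophil growth factor receptor, did not exceed 0.0452.

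S100B was the member with higher October values. S100B (GeneID 102169524) was at 21.2 and 21.9 in the October female and male, against 8.57 and 5.35 in the April female and male. The mean was 21.5 ± 0.534 in October and 6.96 ± 2.27 in April (SD, n = 2 each), a ratio of 3.09. Its log2 fold change was 1.53 (SE 0.23, 95% interval 0.97 to 2.10) with a limma adjusted p of 0.0649. Leaving out the October female library gave 1.56, and leaving out the October male gave 1.51. Without the April female library the log2 fold change was 1.83, and without the April male library it was 1.24.

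Several defining markers of the glial and pigment cells that carry S100B were at or near 0, and others were not. SOX10, the transcription factor of both lineages, was at 0.107 and 0.198 in October and at 0.0439 and 0.0403 in April. DCT and CDH19 were at 0 in all libraries, and TYR and TYRP1 did not exceed 0.0618. The 7 Schwann cell markers given here summed to 78.0 and 91.8 in October and to 63.9 and 74.6 in April, nearly all of it MBP, ERBB3 and PMP22. ERBB3, a neuregulin receptor that is not restricted to glia, was at 33.9 and 39.1 in October, against 22.7 and 20.1 in April (log2 fold change 0.74, limma adjusted p = 0.0783). The 8 melanocyte markers summed to 6.62 and 7.34 in October and to 5.80 and 7.08 in April, nearly all of it MITF, at 3.34 to 4.84 over the libraries, and PMEL, at 2.08 to 2.54. The part of such cells in the S100B difference was not tested. AGER, the receptor for advanced glycation end products that S100B binds, was at 1.77 and 1.46 in October and at 1.78 and 1.23 in April (limma adjusted p = 0.867).

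S100A6, calcyclin, had the lowest values of the members, and its row carries no description in the deposited tables. Whether the annotation used holds its full transcript is unknown, so these values may not give its level in the cells. S100A6 (GeneID 102181741) was at 1.68 and 1.16 in the October female and male, against 2.63 and 6.88 in the April female and male. The April male stood well above the other 3 libraries. The log2 fold change was -1.15 (SE 0.39, limma adjusted p = 0.14), which on the log2(value + 1) scale understates a change at so low a level. Without the April male library it was -0.59, and without the April female library -1.71. CACYBP, the calcyclin-binding protein, was at 83.5 and 69.4 in October and at 96.0 and 113 in April (adjusted p = 0.180).

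Of the members, 5 sit in the RefSeq table in a run of 9 neighbouring genes with S100 symbols, from S100A6 to S100A1. Beyond S100A6 lie LOC102191570, described as protein S100-A7, and then S100A7A, which are left out of the run shown. Neighbours in this run differed in how far October and April lay apart. From the S100A6 end, the log2 fold changes were -1.15 for S100A6, -1.20 for S100A5, -0.24 for S100A4, -1.16 for S100A3 and -1.79 for S100A2, and then -0.34 for S100A16, -0.19 for S100A14, 0.14 for S100A13 and 0.46 for S100A1. S100A4 thus lay between genes with larger differences on both sides, and its level was far above theirs apart from that of S100A2. The log2(value + 1) scale understates the differences of the low genes in this run. With a pseudocount of 0.1 they were -1.54 for S100A6, -1.56 for S100A3 and 0.68 for S100A1, while S100A2 stayed at -1.79. S100A5, known from olfactory neurons, was at 17.9 and 21.2 in October, against 34.6 and 60.8 in April (limma adjusted p = 0.0852). S100A3, a protein of the human hair cuticle, was at 1.10 and 2.05 in October, against 4.20 and 5.13 in April (adjusted p = 0.0798). Its log2 fold change was -1.43 without the October male library and -0.89 without the October female library. S100A1 was at 2.36 in both October libraries and at 1.55 and 1.33 in April (adjusted p = 0.186).

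**Figure D4:**
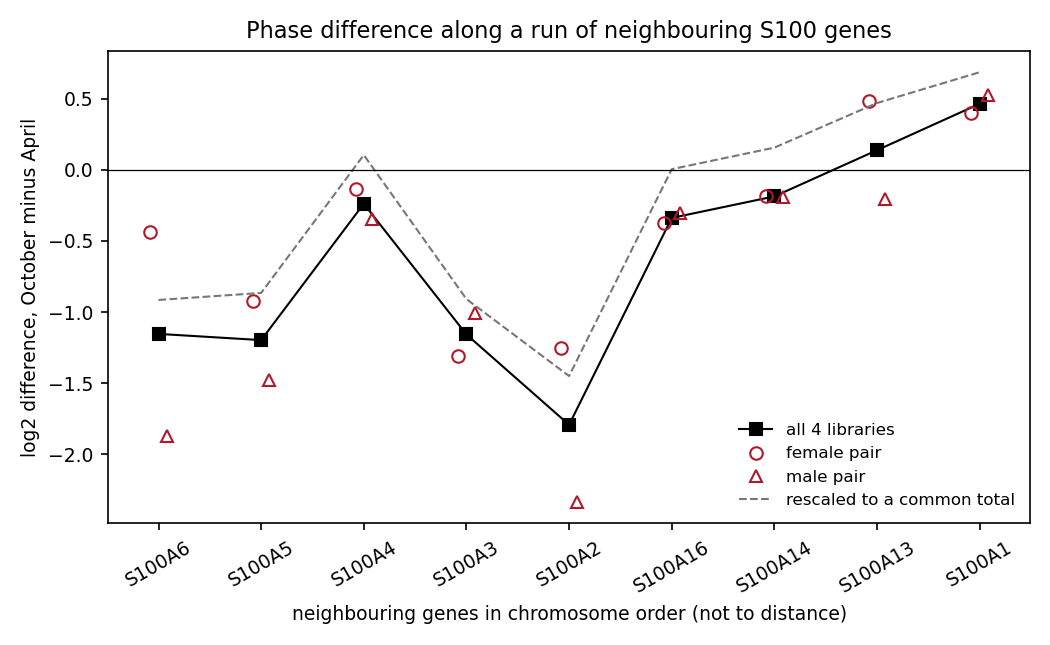
Log2 fold change, October minus April, of 9 neighbouring S100 genes in chromosome order, with black squares for all 4 libraries, open circles for the female pair, open triangles for the male pair and a dashed line for values rescaled to a common total. The differences run from -1.79 at S100A2 to 0.46 at S100A1, and S100A4 at -0.24 lies between S100A5 and S100A3.

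Of 6 further S100 genes found by symbol, 4 were tested and 0 passed limma. Of the 4, 2 had an unadjusted p under 0.05, S100A3 and S100A5, against 27.9% of all tested genes. S100G was under 1 in every library and S100A7A was at 0 in all. In addition, 3 rows without a symbol are described as S100 proteins. LOC102169149, described as protein S100-A12 and placed between S100A9 and S100A8 in the RefSeq table, was at 256 and 117 in the October female and male, against 186 and 98.7 in the April female and male. It was higher in the female than in the male library by more than it differed between phases (log2 fold change 0.35, adjusted p = 0.648). LOC102191570, described as protein S100-A7, was at 4.03 and 1.01 in October and at 5.38 and 4.18 in April (log2 fold change -0.85, adjusted p = 0.265). Without the October female library it was -1.52, and without the October male library it was -0.19. LOC108633164, described as S100-A7-like, was at 4.91 in the October female, 0 in the October male, 2.87 in the April female and 0.545 in the April male. Including all 19 S100 rows, the family made up 1.27% and 1.13% of the total in October, against 1.74% and 1.92% in April.

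As deposited, transcripts of the proteins that S100 dimers bind differed between phases in both directions, more often with lower October values. Of 20 listed partners 19 were tested, and 0 passed limma. Of the 19 tested, 5 had an unadjusted p under 0.05, against 27.9% of all tested genes. Their median log2 fold change was -0.21, against 0.01 over all genes. Rescaling to a common total shifted the median of all tested genes by 0.31, which is more than the size of this list's median. The list was not recounted on that scale, where the log2 fold change was -0.23 for ANXA1, -0.28 for ANXA2 and 0.53 for MYH9. Both October libraries were below both April libraries for 9 of them and above for 4, against 30.9% and 31.5% of all tested genes. ANXA2 was at 2939 and 3892 in October, against 4413 and 6105 in April, and ANXA1 at 1294 and 1710 in October, against 1955 and 2514 in April, and neither passed (adjusted p of 0.319 and 0.269). ANXA6, another annexin, was at 3.80 and 4.74 in October and at 1.80 and 1.54 in April (log2 fold change 0.98, adjusted p = 0.0766). STK38, a kinase that S100B binds, was at 22.4 and 21.8 in October and at 15.2 in both April libraries (adjusted p = 0.0967). The actin-capping subunit CAPZB, at 118 and 135 in October against 194 and 252 in April (adjusted p = 0.0923), and the immunophilin FKBP4, at 143 and 162 against 230 and 321 (adjusted p = 0.098), did not pass either. MYH9, the myosin heavy chain bound by S100A4, was at 459 and 682 in October and at 445 and 545 in April, with the phases overlapping.

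Of the 9 listed cell surface receptors for secreted S100 proteins, 7 were tested. Against 0.304% of all tested genes called, 1 of them was called, FGFR1, with higher October values. This growth factor receptor was at 38.8 and 31.1 in October, against 10.01 and 7.97 in April (log2 fold change 1.85, SE 0.19, limma adjusted p = 0.0431). Among the settings that keep all libraries, its call was lost in several. These were a pseudocount of 0.1, no low-value filter and no intensity trend (limma adjusted p from 0.0531 to 0.105). Its log2 fold change was 1.99 without the April female library and 1.70 without the April male library. CD14, a co-receptor of TLR4, was at 12.6 and 8.52 in October, against 3.28 and 2.49 in April (log2 fold change 1.56, adjusted p = 0.0688). Its log2 fold change was 1.30 without the October female library and 1.82 without the October male library. TLR4, which S100A8 and S100A9 activate, was at 3.51 and 2.67 in October, against 1.02 and 0.848 in April (log2 fold change 1.07, adjusted p = 0.0766). SCARB1 was at 67.8 and 73.8 in October, against 94.9 and 91.3 in April (adjusted p = 0.165). The list's median was 0.07. Of the 7 tested, 4 had an unadjusted limma p under 0.05, against 27.9% of all tested genes. Both October libraries were above both April libraries for 3 and below for 1, against 31.5% and 30.9% of all tested genes.

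Other EF-hand proteins gave a comparison for the family. Of 26 listed, 21 were tested and 0 passed limma, with a median of -0.17. Of the 21 tested, 4 had an unadjusted p under 0.05, against 27.9% of all tested genes. Both October libraries were below both April libraries for 10 and above for 6, against 30.9% and 31.5% of all tested genes. The 4 with the smallest p were CAPNS2 (log2 fold change -0.87) and SRI (-0.52), penta-EF-hand proteins, CIB1 (-0.40), an integrin-binding protein, and NUCB1 (0.50), a Golgi calcium-binding protein. Of the fused S100 proteins, which join an S100 domain to a long repeat and belong to cornifying cells, 4 of 7 were found and 2 tested. CRNN was at 1.12 and 2.61 in October and at 1.61 and 4.20 in April, and TCHHL1, next to S100A11, at 1.47 and 1.14 in October and at 1.41 and 1.19 in April, both with overlapping phases. TCHH, trichohyalin of the inner root sheath, did not exceed 0.374 in any library.

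**Figure D5:**
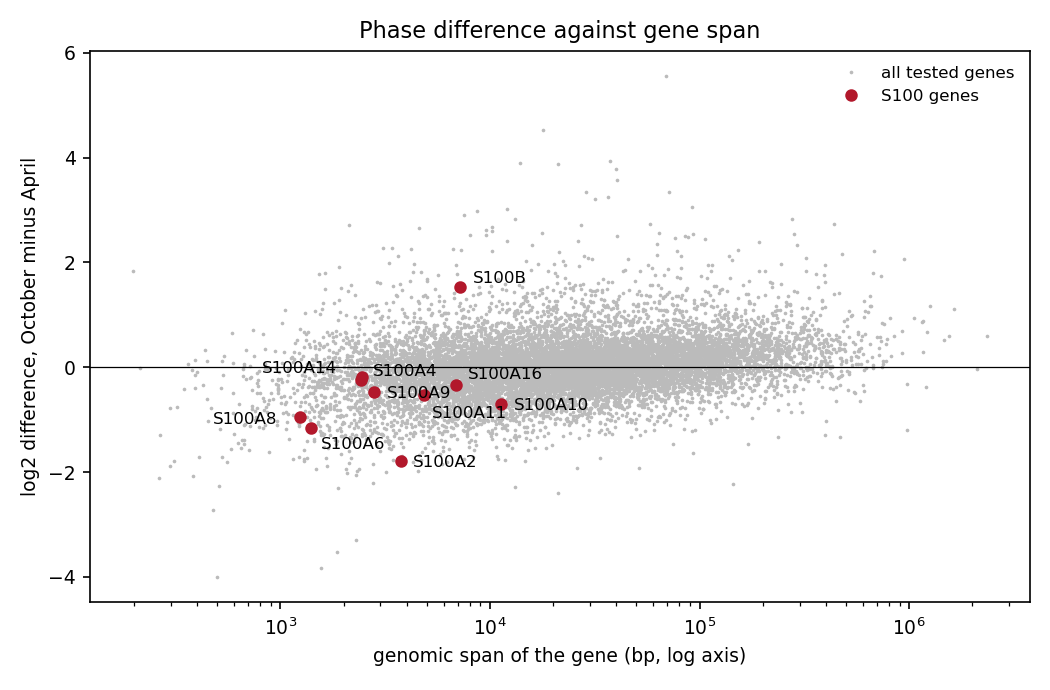
Log2 fold change, October minus April, of all 12486 tested genes (grey points) and of the S100 members (red points) against the genomic span of each gene in the RefSeq table, in bp on a log axis. The members span 1242 to 11307 bp, at the short end where the cloud lies lower, with S100A2 at -1.79 and S100B at 1.53 farthest from 0.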

How the data were processed

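RNA of 4 libraries was analysed, 2 from October (mid anagen) and 2 from April (early anagen), grouped by their titles. The values the authors deposited are a signal that estimates how abundant the transcripts of each gene were relative to their length. Per the submitters' processing notes, the tools named, without a role, are kallisto 0.46.1 and sleuth 0.30.0. Information on the build, annotation, gene-level summing and library scaling was not given in the sources used here. In the values as deposited, the median ratio of tested genes to their geometric mean over the libraries was between 0.998 and 1.007 in every library. The medians were thus already level between libraries, and rescaling to a common total moved them apart. Read depth is unknown. Low values were searched for the step made by 1 read. The fullest bin of the ratio of 2 libraries held 13.4% of low genes between the April libraries but 2.7% to 3.34% in pairs with the October male, so reads were not recovered and no counting interval is given. P-values rest on the spread between these libraries, which limma moderates toward the spread of other genes at a similar level. The SE of S100A14 was thus 0.22 although its libraries nearly coincided within each phase.

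The 12486 genes that reached 1 or more in 2 or more libraries were compared as log2(value + 1) with limma 3.58.1 in R 4.3.3, with an intensity trend and phase as the only term. P-values are two-sided and adjusted by the Benjamini-Hochberg method over all tested genes, with a threshold of 0.05. GeneIDs were matched to the RefSeq table of ARS1.2 (20294 of 20326), used for span and neighbours. The named genes are all members, the other S100 genes found by symbol and up to 4 genes a list with the smallest p. Outside this rule, and named for their relation to a member, are ANXA1, ANXA2, CACYBP, AGER, MYH9, KRT14, KRT5, TP63, TCHH, the rows described as S100 proteins and the markers given as levels. A further 2 listed Schwann cell markers were not analysed here. The members and lists were chosen with earlier results of these data known. Alternatives were pseudocounts of 0.1 or 5, a low-value filter of 5 or none, 2 rescalings, removal of the span trend by lowess, no intensity trend, a replicate block and leaving out each library.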

Additional observations from a re-analysis of the deposited data

Results flagged for a closer look

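Of the tested S100 rows, 2 had opposite phase differences in the female and male pairs of libraries. S100A13 was at 51.2 in the October female and 23.9 in the October male, against 36.4 in the April female and 27.8 in the April male. Between the female libraries the log2 difference was 0.48, and between the male libraries it was -0.21. LOC108633164, described as S100-A7-like, differed by 0.61 on the log2 scale between the female libraries and by -0.63 between the male libraries, and was at 0 in the October male. With 1 library for each sex and phase, the difference between the pairs was not tested.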

How the results depend on the processing

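S100A2, S100A6, S100A8, S100A9, S100A10, S100A11 and S100B kept their direction in all settings that gave them a value (S100A6 was not tested with a filter of 5). Log2 fold changes ran from -2.15 to -1.39 for S100A2, 1.16 to 1.90 for S100B, -1.71 to -0.57 for S100A6, -1.35 to -0.53 for S100A8, -0.998 to -0.30 for S100A10, -0.73 to -0.12 for S100A11 and -0.64 to -0.07 for S100A9. Of 509 alternative values of the 42 named genes, 30 changed sign, 31 newly passed and 5 no longer passed, all of the last in FGFR1. The members called numbered 0 as reported, 1 under either rescaling (S100B), 2 with the replicate block (S100A8 and S100B) and from 0 to 3 without 1 library. The genes called over all numbered 38 as reported, 18 with a pseudocount of 0.1, 0 with no filter (3843 at an unadjusted p under 0.05), 648 rescaled to a common total (87.2% higher, against 73.7% as deposited), 1314 with mitochondrial genes also left out (91.7% higher), 1782 with the replicate block and from 0 to 733 without 1 library. When 1 library is left out, the lone library of its phase is assumed to vary like the others.

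The replicate numbers are the sexes and the labels do not tie them to shared animals or days. Same-numbered libraries deviated from their phase means with a correlation across genes of 0.292, and with the block the log2 fold changes stay as they were while the adjusted p became 0.0248 for S100A8 and 0.0123 for S100B. S100A5, S100A3, ANXA6, CAPZB, FKBP4, TLR4, CD14, CAPNS2 and ERBB3 also passed with the block (adjusted p from 0.00881 to 0.0448), and no other named gene changed its call.

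Rescaled to a common total, the summed S100 log2 ratio was -0.62, and the signs changed for S100A4 (0.10), S100A14 (0.16), S100A16 (0.0038) and LOC108633164 (0.11). With mitochondrial genes also left out, these were -0.56, 0.16, 0.22, 0.064 and 0.14, and SCARB1 (0.0068) and CIB1 (0.0029) changed sign as well. With the span trend removed, S100A4 (0.036), S100A14 (0.086) and LOC108633164 (0.20) changed sign, as did TP63 (-0.13). LOC108633164 was 0.092 with a pseudocount of 5, and TCHHL1 was -0.00045 with a pseudocount of 0.1. Without 1 library the sign changed for S100A13 (-0.396 to 0.670), TP63 (-0.168 to 0.558), LOC102169149 (-0.206 to 0.913), LOC108633164 (-1.29 to 1.27), CRNN (-0.911 to 0.086), TCHHL1 (-0.101 to 0.103), AGER (-0.091 to 0.224) and MYH9 (-0.099 to 0.469). The causes were not tested.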

Other observations

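Several S100 genes had lower values in the male library of both phases, a pattern seen after the values were known and not tested. LOC102169149 (S100-A12), LOC102191570 (S100-A7), LOC108633164 (S100-A7-like), S100A8 and S100A9 were all lower in the male library in October and in April. For S100-A12 the log2 difference, male minus female, was -1.12 in October and -0.90 in April, and for S100A8 it was -0.78 and -0.38. S100A10, S100A16, S100A5 and S100A3 were higher in the male library in both phases, S100A10 by 0.04 in October and 0.59 in April. Over the 17 tested S100 rows, 8 were lower and 4 higher in the male library of both phases (47.1% and 23.5%), against 28.1% and 29.7% of all tested genes. The 8 include S100A14 and S100A1, whose male and female values nearly coincided in at least 1 phase. Over the 10 members alone the counts were 3 and 2. Sex, animal and culture are the same split in these libraries and cannot be told apart.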
